A study of Mus musculus with 161 samples.

Results

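The Ly6C-low monocyte conversion genes followed here are 10 of the 43280 genes in a deposited table of single-cell transcript levels: Nr4a1, Pou2f2, Treml4, Cd300e, Spn, Ace, Cd36, Fabp4, Gngt2 and Eno3. They were listed by name, without a threshold on their values, and were read across all cells and beside Ly6c2 in the same cells. The cells came from untreated C57BL/6 mice and were captured on the Fluidigm C1 microfluidic system, where each of the 161 libraries is 1 cell. The cMoP, a common monocyte progenitor of the bone marrow (66 cells), was lineage-negative, CD117+, CD115+, CD135- and Ly6C+. Bone marrow monocytes (57 cells, BM in the plots) had the same gate but were CD117-, and blood monocytes (38 cells) were CD115+ and CD11b+ with high Ly6C. The labels name no animal, age or sex, so each group counts as 1 sample, no difference has a replicate check and no test was run.

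Mouse monocytes leave the bone marrow as classical cells with high surface Ly6C. In the blood some of them convert into Ly6C-low cells that patrol the vessel wall, and this step needs the nuclear receptor NR4A1. The genes read here are used as markers or regulators of the converted cell.

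Levels are in TPM, the usual abundance unit of RNA sequencing, and are scaled to a fixed total per cell that keeps no read depth. The depth per cell is therefore unknown, and a value of 0 can be a failed estimate: S100a9 is listed at 0 in all 161 cells, and Gapdh and Ptprc in 3 cells each. The median number of genes above 1 TPM was 6661.5 in cMoP, 4719 in marrow monocytes and 4319.5 in blood monocytes. All monocytes of marrow and blood were sequenced on lane 5 of a flow cell, and the cMoP on lane 2 of another, apart from 6 cMoP libraries whose label names no flow cell. The flow cell and the step from cMoP to monocyte can thus not be told apart. 11 cMoP libraries had over 15% of TPM in mitochondrial genes. Under 2% of TPM lay in ribosomal protein genes in 3 cMoP libraries and 1 blood library.

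9 of the 38 blood libraries (23.7%, exact 95% interval 11.4 to 40.2%, which covers the counting of cells only) went against their Ly6C-high label at the level of the transcript. Their Ly6c2 lay between 6.48 and 62.6 TPM, while the other 29 held 817 to 13110 TPM, and a 13.1-fold gap separates the ranges. 1 marrow monocyte at 65.6 TPM and 1 cMoP at 74.2 TPM also lay under 100 TPM. The 9 cells held 2871 to 6630 genes above 1 TPM (median 3724) and the other 29 held 3113 to 5212 (median 4445). Counts of called genes, the members' blood minus marrow differences and member counts per cell in blood are given with and without these 9. Differences of other genes are over all 38 blood libraries unless stated.

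The promoter windows of 3 members are shown first, since letters recur in each. Of the members with a window, these had a mean log2(TPM + 1) at least 1 higher in blood than in marrow monocytes. For Ace this held over all blood cells but not without the 9 low in Ly6c2 (0.67). The windows are RefSeq's sequences on GRCm38.p6, the 250 bases before the annotated start, and 8 of the 10 members had an entry. Gngt2 and Fabp4 did not. Capitals mark the recurring letters, and positions count back from -1 at the last base.
Nr4a1, chr15:101266596-101266845, plus strand: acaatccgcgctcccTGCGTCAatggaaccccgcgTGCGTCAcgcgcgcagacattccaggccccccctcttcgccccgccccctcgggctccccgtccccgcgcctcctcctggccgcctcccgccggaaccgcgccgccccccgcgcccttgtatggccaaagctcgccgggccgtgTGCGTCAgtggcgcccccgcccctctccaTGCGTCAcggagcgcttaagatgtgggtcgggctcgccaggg
Ace, chr11:105967698-105967947, plus strand: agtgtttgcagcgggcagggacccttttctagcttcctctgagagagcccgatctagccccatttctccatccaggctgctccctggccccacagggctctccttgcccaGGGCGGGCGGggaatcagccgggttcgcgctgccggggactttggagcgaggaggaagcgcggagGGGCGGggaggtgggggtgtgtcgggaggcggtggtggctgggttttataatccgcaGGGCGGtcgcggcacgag
Treml4, chr17:48264045-48264294, plus strand: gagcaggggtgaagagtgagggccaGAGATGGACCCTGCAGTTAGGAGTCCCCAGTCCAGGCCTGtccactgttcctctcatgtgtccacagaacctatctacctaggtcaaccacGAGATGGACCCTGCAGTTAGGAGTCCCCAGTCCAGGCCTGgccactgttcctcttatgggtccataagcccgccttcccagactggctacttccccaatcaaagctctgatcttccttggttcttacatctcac

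The Nr4a1 window holds TGCGTCA 4 times, starting at -235, -215, -71 and -42. These letters are a form of the element bound by CREB and AP-1 proteins, which switch on immediate early genes. On either strand 1.75% of 32851 windows of this length hold them at least once, and 0.00304% hold them 4 times or more. The latter share is the Nr4a1 window itself and no other. The Ace window holds GGGCGG, the GC box bound by SP1, at -140, -136, -75 and -18, of which the first pair overlaps. On either strand 32.7% of windows hold this box and 4.09% hold at least 4. Another RefSeq window of Ace, starting at 105974939 and not shown, holds 0. The box is not particular to Ace: the Nr4a1 window holds 3 and those of Cd36 and Pou2f2 hold 2 each. The windows of Spn, Eno3, Cd300e and Treml4 hold 0. The Treml4 window carries 40 bases in identical direct copies from -225 and -134, and 0.274% of windows hold a direct repeat as long. AAAGGTCA, the element bound by NR4A1 itself (in 1.34% of windows), the octamer ATGCAAAT of POU factors (1.601%) and the cAMP response element TGACGTCA (1.55%) were not found on either strand in the window of any member. The marked letters were shown because they recur in these windows, and for Treml4 the longest repeat was taken. The shares of windows beside them describe letters so chosen and are no test of rarity. No binding was measured, so the matches describe sequence only.

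Nr4a1 and Pou2f2 are the transcription factors of the set. Nr4a1 encodes the nuclear receptor required for Ly6C-low monocytes (chromosome 15, 101254269 to 101274795, plus strand of GRCm38; its annotated start lies upstream of the window shown). In cMoP its level had a median of 0 and a highest value of 24.7 TPM. In marrow monocytes the median was 0 and the highest value 351 TPM, and in blood monocytes the median was 1.25 and the highest value 1159 TPM. The lowest value was 0 in each group, so the groups overlapped at the bottom and differed in how many cells were high. Above 10 TPM lay 3 of 66 cMoP (4.55%, interval 0.947 to 12.7%), 12 of 57 marrow monocytes (21.1%, 11.4 to 33.9%) and 16 of 38 blood monocytes (42.1%, 26.3 to 59.2%). 5 of the 10 cMoP above 1 TPM were among the 6 libraries with no labelled flow cell.

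On the scale of log2(TPM + 1), mean Nr4a1 was 0.44 ± 1.09 (SD over 66 cells) in cMoP, 1.65 ± 2.53 (57 cells) in marrow monocytes and 3.33 ± 3.61 (38 cells) in blood monocytes. The blood minus marrow difference was 1.68, and it was 2.19 without the 9 blood cells low in Ly6c2. The marrow minus cMoP difference was 1.21, and 0.97 in cells matched at 4500 to 6000 genes. Each step was smaller than the larger SD over cells.

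Pou2f2 encodes the POU factor OCT2 (chromosome 7, 25087344 to 25179726, minus strand). Its highest value was 271 TPM in cMoP, 63.1 TPM in marrow monocytes and 510 TPM in blood monocytes, with medians of 0.49, 0.62 and 1.49 TPM. Mean levels were 6.31, 6.31 and 21.4 TPM, but without the highest cell of each group they were 2.24, 5.30 and 8.14 TPM. The cMoP with 271 TPM had 47.7% of its TPM in mitochondrial genes. Above 10 TPM lay 4 of 66, 8 of 57 and 11 of 38 cells, so the share of cells held the same order as the mean log2 levels of 1.11, 1.503 and 2.18. No neighbours in that order differed by more than the SD over cells, which was 1.48, 1.73 and 2.19. The blood minus marrow difference was 0.67, and 0.74 without the 9 blood cells low in Ly6c2. In cells with 4500 to 6000 genes the order of cMoP and marrow turned around, with a marrow minus cMoP difference of -0.36 against 0.40 in all cells. In those matched cells blood minus marrow was 1.34 and blood minus cMoP 0.98, against 1.07 in all cells.

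**Figure D1:**
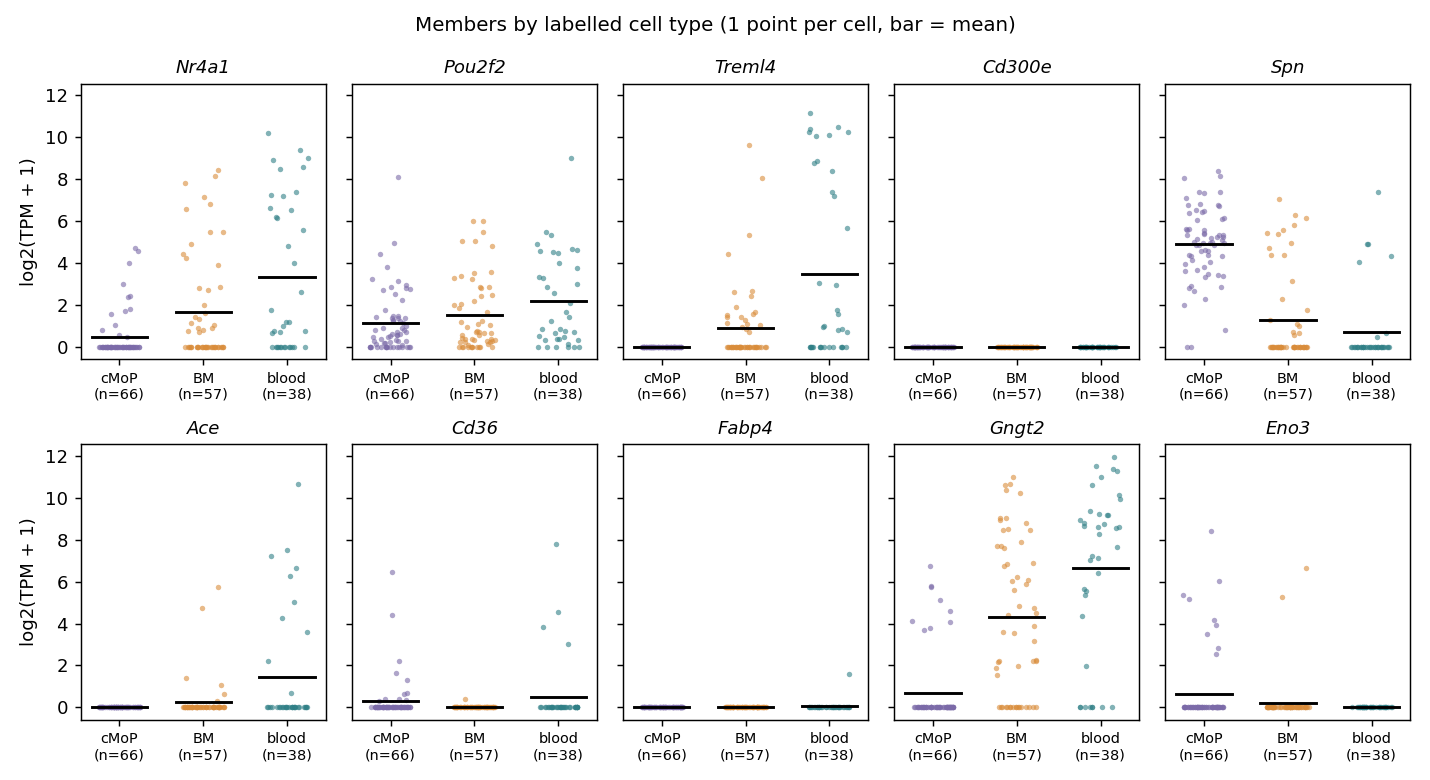
The 10 members in every cell, as log2(TPM + 1) on the vertical axis and labelled cell type on the horizontal axis, with 1 point per cell and a bar at the group mean. Gngt2, Treml4 and Nr4a1 reach their highest values in blood, Spn is high in most cMoP (mean 4.90), and Cd300e is listed at 0 in each of the 161 cells.

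Of the 4 surface receptors, Treml4 was present in monocytes and listed at 0 in every cMoP. Treml4 encodes a TREM-like receptor that binds dying cells (chromosome 17, 48264295 to 48275360, plus strand). In marrow monocytes 17 of 57 cells lay above 1 TPM, and 13 of these stayed at or below 10 TPM, with a highest value of 781 TPM. In blood monocytes 17 of 38 lay above 1 TPM, 13 above 10 TPM and 12 above 100 TPM, up to 2264 TPM. A larger share of blood than of marrow cells thus held high values, 34.2% (19.6 to 51.4%) against 7.02% (1.95 to 17.004%) above 10 TPM, while both groups had cells at 0. Its mean log2 level was 0.90 ± 1.89 (SD over 57 cells) in marrow monocytes and 3.48 ± 4.30 (38 cells) in blood, a difference of 2.58, or 2.26 without the 9 cells low in Ly6c2. The difference was smaller than the SD over blood cells. If a listed 0 is a true 0, the count of 0 of 66 cMoP allows a share of up to 4.55%, the limit of 3 cells.

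Spn had the reverse order. It encodes CD43, a heavily glycosylated sialomucin used to separate Ly6C-low from classical monocytes (chromosome 7, 127132232 to 127137823, minus strand). In cMoP it ran from 0 to 339 TPM with a median of 31.3, and 54 of 66 cells lay above 10 TPM (81.8%, 70.4 to 90.2%). In marrow monocytes the median was 0, the highest value 129 TPM, and 11 of 57 cells lay above 10 TPM (19.3%, 10.05 to 31.9%). In blood monocytes 5 of 38 cells lay above 10 TPM (13.2%, 4.41 to 28.1%), 1 at 164 TPM and the others at 15.4 to 28.9 TPM. Mean log2 levels were 4.90 ± 1.76 (SD over 66 cells), 1.27 ± 2.18 (57 cells) and 0.70 ± 1.79 (38 cells). Marrow monocytes stood -3.63 from cMoP, more than the larger SD, whereas blood stood -0.57 from marrow (-0.502 without the 9 cells), less than the SD. In cells with 4500 to 6000 genes the marrow minus cMoP difference was -2.93 and the blood minus marrow difference -1.16.

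Cd300e and Cd36 were rare or absent from the values. Cd300e, an activating receptor of the CD300 family (chromosome 11, 115051917 to 115062177, minus strand), was listed at 0 in all 66 cMoP, 57 marrow monocytes and 38 blood monocytes. As for S100a9, such 0s throughout give no bound on the share of cells with the transcript. Its relatives were detected: mean Cd300a was 293 TPM, mean Cd300lf 103 TPM and mean Cd300ld 78.3 TPM in blood monocytes. Cd36 encodes a scavenger receptor for oxidised lipoproteins and fatty acids (chromosome 5, 17781690 to 17888801, minus strand). It lay above 10 TPM in 2 of 66 cMoP (20.6 and 86.9 TPM), both among the 6 libraries with no labelled flow cell. No marrow monocyte passed 0.33 TPM, and 3 of 38 blood monocytes lay above 10 TPM, at 13.4, 22.8 and 225 TPM. The blood mean of 7.06 TPM was 1.17 TPM without the highest cell, so a single cell made up most of it.

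Ace, the peptidase that converts angiotensin I to angiotensin II, was confined to a minority of monocytes (chromosome 11, 105967945 to 105989964, plus strand). It was listed at 0 in all 66 cMoP. In marrow monocytes 4 of 57 cells lay above 1 TPM and 2 above 10 TPM, at 25.97 and 52.1 TPM. In blood 9 of 38 cells lay above 1 TPM and 8 above 10 TPM (21.1%, 9.55 to 37.3%), with a highest value of 1644 TPM. That highest cell is the blood library with under 2% of TPM in ribosomal protein genes. Without it the blood mean was 15.5 TPM instead of 58.4 TPM. The blood minus marrow difference in mean log2 level was 1.18, from 0.24 ± 0.997 (SD over 57 cells) to 1.42 ± 2.81 (38 cells). It was 0.93 without that library, 0.67 without the 9 cells low in Ly6c2 and 0.63 in cells with 4500 to 6000 genes. Each of these lies under the difference of 1 that is used below as the threshold for a call.

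Fabp4, a carrier of fatty acids inside adipocytes and macrophages (chromosome 3, 10204088 to 10208576, minus strand), was listed above 0 in a single cell, a blood monocyte at 1.96 TPM. Its relative Fabp5 had means of 109 TPM in cMoP, 105 TPM in marrow monocytes and 73.1 TPM in blood monocytes. The 4 adipocyte markers Adipoq, Plin1, Cidec and Lep were at 0 in all cells.

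Gngt2 showed the widest range of the set. It encodes a gamma subunit of heterotrimeric G proteins, which relay signals from receptors such as those for chemokines (chromosome 11, 95837216 to 95845734, plus strand). In cMoP it ran from 0 to 108 TPM with a median of 0, in marrow monocytes from 0 to 2033 TPM with a median of 13.8, and in blood monocytes from 0 to 3993 TPM with a median of 348. Above 10 TPM lay 9 of 66 (13.6%, 6.43 to 24.3%), 31 of 57 (54.4%, 40.7 to 67.6%) and 29 of 38 cells (76.3%, 59.8 to 88.6%). Cells without the transcript remained in each group, 8 of them in blood. Mean log2 levels were 0.66 ± 1.72 (SD over 66 cells), 4.29 ± 3.72 (57 cells) and 6.65 ± 4.03 (38 cells). Neighbouring steps of 3.63 and 2.36 were smaller than the larger SD, and only the span from cMoP to blood, 5.98, exceeded it. Without the 9 cells low in Ly6c2, blood stood 2.22 above marrow and 5.85 above cMoP. Of its relatives, Gngt1, the gamma subunit of rods, averaged 0.57 TPM in blood monocytes, while Gng5 and Gng10 had means of 431 and 289 TPM.

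Eno3, the muscle form of the glycolytic enzyme enolase, had no value above 0 in blood (chromosome 11, 70657202 to 70662513, plus strand). It lay above 10 TPM in 7 of 66 cMoP, with a highest value of 340 TPM, and in 2 of 57 marrow monocytes, at 37.4 and 98.9 TPM. If a listed 0 is a true 0, the 0 of 38 blood monocytes allow a share of up to 7.89%. The common form of the enzyme, Eno1, had means of 932, 1200 and 929 TPM in cMoP, marrow monocytes and blood monocytes.

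To compare the groups over the whole table, a gene counted as higher or lower where the mean log2 level differed by at least 1, which is 2-fold on that scale. The background is the share of the 14003 measured genes, those above 1 TPM in 10% or more of some group's cells, which 8 of the 10 members are. From marrow monocytes to blood 4 of 10 members were higher (Treml4, Gngt2, Nr4a1 and Ace), where the background is 1.96%, and 0 were lower, where it is 9.66%. Without the 9 cells low in Ly6c2, 3 of 10 were higher and 0 lower, where the backgrounds are 2.84% and 8.81%, and Ace lost its call. The median difference over the 10 members was 0.59 and over all measured genes -0.10. Under a scaling of the cells to a common median ratio, the share of higher among all calls moved from 16.9% to 28.3%, and the 4 members kept their calls.

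From cMoP to marrow monocytes 2 of 10 members were higher (Gngt2 and Nr4a1; background 3.94%) and Spn alone was lower (background 30.8%). From cMoP to blood 5 of 10 were higher (background 4.28%), of which Treml4 and Ace were listed at 0 in all cMoP, and Spn alone was lower (background 37.7%). With only the 29 blood cells high in Ly6c2, 4 of 10 were higher (background 4.68%), Ace having lost its call, and Spn was lower (background 36.7%). With a pseudocount of 10 TPM the higher members numbered 1 in marrow (background 2.16%) and 3 in blood (background 2.48%). The medians over the members were 0.12 and 0.65, against -0.45 and -0.58 over all measured genes. The 3 comparisons share cells and are not independent of each other.

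**Figure D2:**
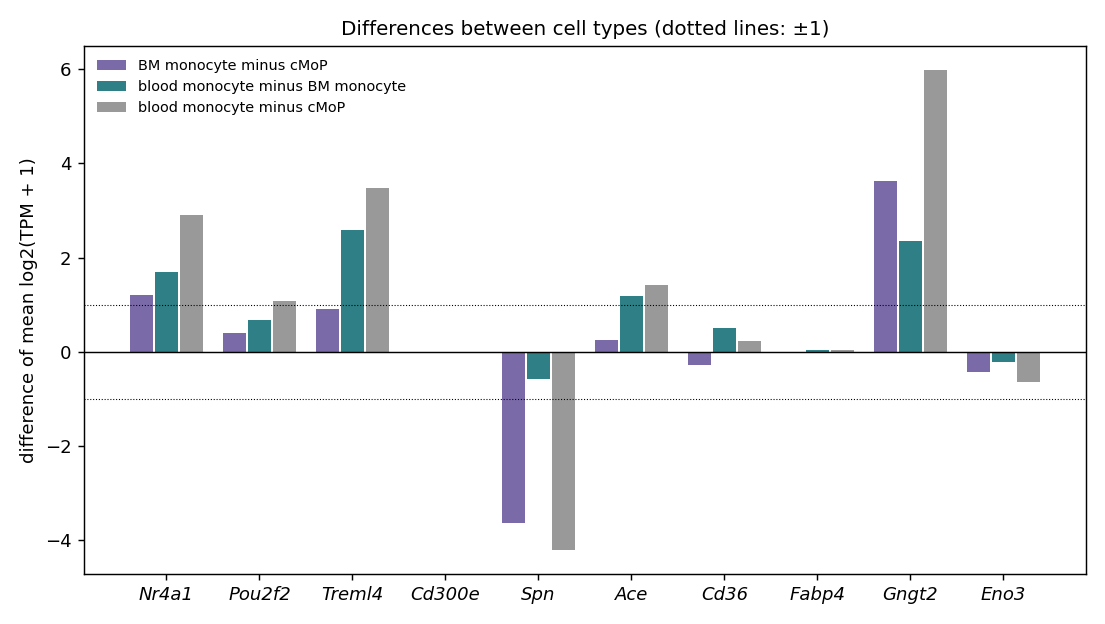
Differences in mean log2(TPM + 1) between the labelled cell types for the 10 members, on a vertical axis in log2 units, with 1 bar per comparison and dotted lines at 1 and -1. Gngt2 stands 3.63 higher in marrow monocytes than in cMoP and 2.36 higher in blood than in marrow, while Spn stands -3.63 from cMoP to marrow.

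Other genes of the same path were read from lists of known genes. Of 18 other Ly6C-low monocyte genes, 6 were higher and 1 lower in blood than in marrow monocytes, with a median of 0.62. The backgrounds were 1.96% higher and 9.66% lower, also for the lists that follow over all 38 blood cells. In the 29 blood cells high in Ly6c2 the counts were 8 and 0, with a median of 0.66. There the backgrounds were 2.84% and 8.81%, also for the lists that follow without the 9 cells. Csf1r, the receptor for macrophage colony-stimulating factor, stood 2.11 higher over all 38 cells. The inhibitory collagen receptor gene Lair1 stood 1.47 higher, the fractalkine receptor gene Cx3cr1 1.14 higher, and the adhesion gene Ceacam1 stood at -1.19, or -0.96 and no longer lower without the 9 cells. Of 14 classical monocyte genes 0 were higher and 8 lower, with a median of -1.44, among them the coagulation factor gene F13a1 at -2.93. Without the 9 cells 1 was higher and 6 were lower, with a median of -0.73, and F13a1 stood at -2.41. Ly6c2 itself stood at -2.15, with 9.99 ± 3.33 (SD over 38 cells) in blood and 12.1 ± 1.55 (57 cells) in marrow. Over the 29 cells it stood at -0.41, with 11.7 ± 1.05 (SD), and the difference of 1 was not reached. These cells were kept for their high Ly6c2, so the smaller difference follows from the choice and is no result. The marrow group kept its 1 cell under 100 TPM.

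Nr4a1 is also an immediate early gene, which cells switch on within minutes of a stimulus. Of 14 other immediate early genes, 3 were higher in blood than in marrow and 0 lower, with a median of 0.05 (backgrounds 1.96% and 9.66%). Without the 9 cells low in Ly6c2, 4 were higher and 0 lower, with a median of 0.39 (backgrounds 2.84% and 8.81%). Dusp1, a phosphatase of MAP kinases, stood 2.99 higher, the stress factor gene Atf3 2.51 and the AP-1 gene Junb 1.65. The nearest relatives of Nr4a1 did not share its order: Nr4a2 had means of 17.5, 23.7 and 6.31 TPM in cMoP, marrow monocytes and blood monocytes, and Nr4a3 stayed under 10 TPM in every blood cell. Across the 38 blood cells, which share a flow cell and lane, the rank correlation of Nr4a1 with 13 of these genes that could be computed had a median of 0.20 and ran from -0.11 to 0.31. Within the 29 cells high in Ly6c2 the median was 0.13, and in marrow monocytes 0.08. The 14 classical monocyte genes had a higher median with Nr4a1, 0.27 over the 38 cells and 0.16 over the 29. The part of this programme in the level of Nr4a1 was not tested.

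Among 12 lipid uptake and storage partners of Cd36 and Fabp4, of which 9 were measured, 0 were higher and 3 lower in blood than in marrow, with a median of -0.13. Without the 9 blood cells the counts were also 0 and 3, with a median of -0.006. The cholesterol exporter gene Abcg1 stood at -3.38 and the fatty acid ligase gene Acsl1 at -1.83. Of 28 paralogues of the members, of which 20 were measured, 2 were higher and 4 lower, with a median of -0.18, and 2 and 3 without the 9 blood cells. The backgrounds for these counts are those of the members, 1.96% higher and 9.66% lower, or 2.84% and 8.81% without the 9 blood cells. The higher ones were Cd300ld (2.13) and Cd300lf (1.72), relatives of the member that was listed at 0 throughout.

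Cell types that carry several members were looked for by their own markers. Of 10 endothelial markers, for cells rich in Ace and Cd36, 9 were at 0 in all blood monocytes and the highest sum in a blood cell was 2.96 TPM. Of 8 platelet markers, for cells rich in Cd36, 6 were at 0 in blood and the highest sum was 4.92 TPM. 6 macrophage markers summed to a median of 6.63 TPM and at most 2325 TPM in blood, where the highest value is that of Emr1 (F4/80), which monocytes also express. In blood C1qc and Vcam1 were at 0, C1qa and C1qb reached at most 1.06 and 4.2 TPM, and Mertk passed 10 TPM in 1 cell. Other lists were not near 0 in every blood cell. The highest sum was 1050 TPM for B cell markers, where Cd79b passed 10 TPM in 4 cells. It was 1734 TPM for neutrophil, 955 TPM for conventional and 657.5 TPM for plasmacytoid dendritic cell markers. The medians of these 4 sums were 1.74, 6.26, 1.435 and 17.2 TPM. T and NK cell markers reached 35.8 TPM and erythroid markers 13.8 TPM.

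Within blood, the members were set beside Ly6c2 cell by cell. In the 9 cells under 100 TPM of Ly6c2, 2 held Nr4a1 above 10 TPM (22.2%, 2.81 to 60.01%), against 14 of the 29 cells over 100 TPM (48.3%, 29.4 to 67.5%). Treml4 was above 10 TPM in 4 of 9 cells (44.4%, 13.7 to 78.8%) and in 9 of 29 (31.03%, 15.3 to 50.8%). Ace was above 10 TPM in 3 of 9 (33.3%, 7.49 to 70.1%) and 5 of 29 (17.2%, 5.85 to 35.8%). The intervals cover the counting of cells only, and the ranges were not tested against each other. Pou2f2 was above 10 TPM in 3 of 9 and 8 of 29 cells, Gngt2 in 6 of 9 and 23 of 29, Spn in 1 of 9 and 4 of 29, and Cd36 in 1 of 9 and 2 of 29. Gngt2 had a median of 607 TPM in the 9 cells and 198 TPM in the 29.

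The highest cells were found on both sides of the gap. The highest Nr4a1, 1159 TPM, lay in a cell with 7005 TPM of Ly6c2, and the highest Treml4, 2264 TPM, in a cell with 1408 TPM. The highest Ace, 1644 TPM, lay in a cell with 36.8 TPM and the highest Gngt2, 3993 TPM, in a cell with 7.68 TPM. The cell with the most Ly6c2, 13110 TPM, had all 10 members at 0.

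**Figure D3:**
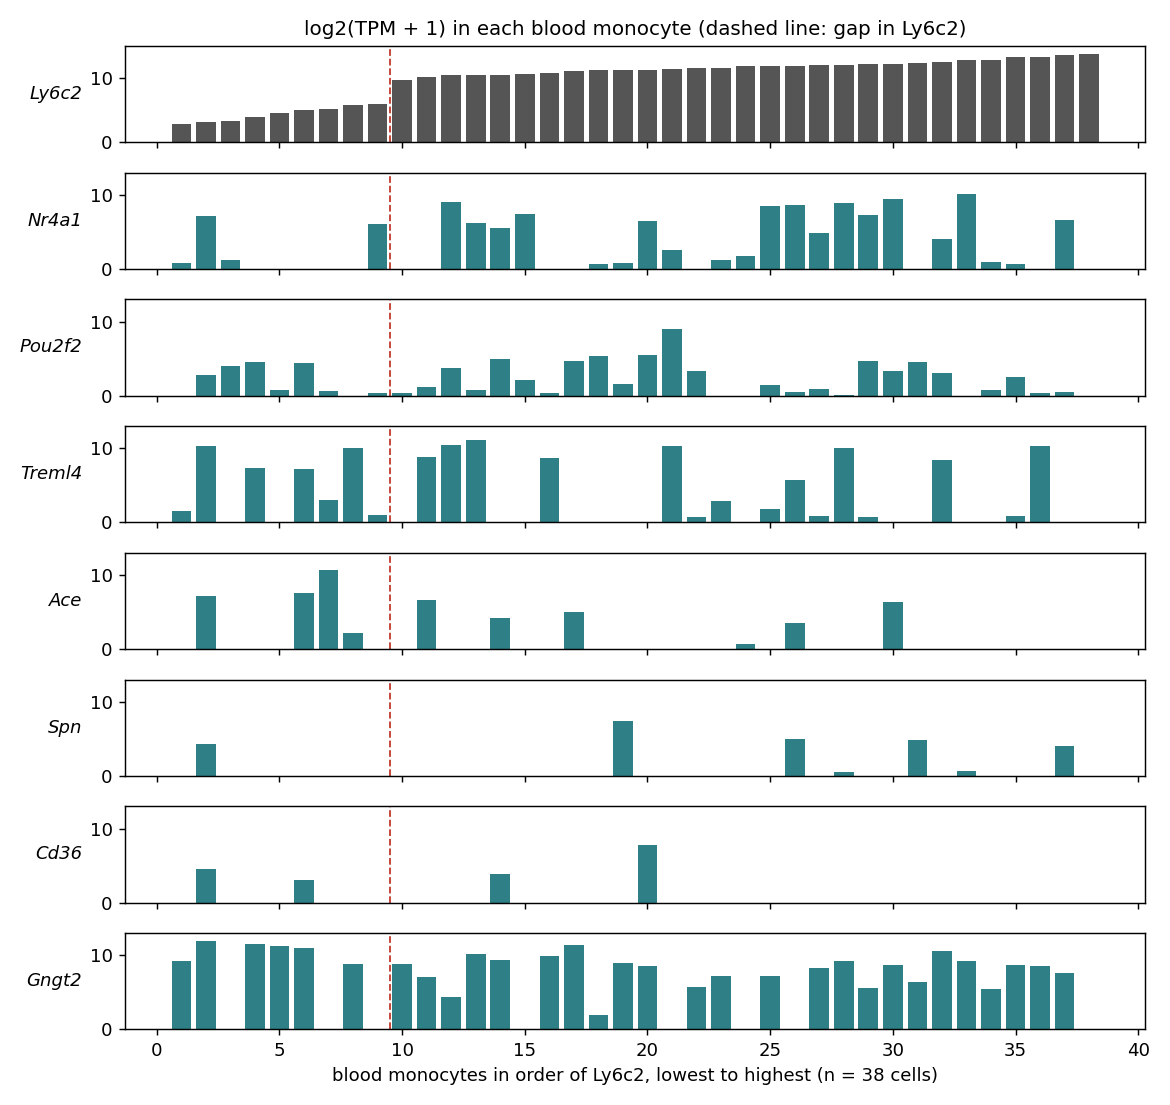
Ly6c2 and 7 members in each of the 38 blood monocytes, as log2(TPM + 1) on the vertical axes, with cells in order of Ly6c2 from lowest to highest and a dashed line at the gap between 62.6 and 817 TPM. Bars of Nr4a1, Treml4 and Gngt2 stand on both sides of the line. Nr4a1 is at 0 in 5 of 9 cells left of it and 8 of 29 right of it, Treml4 in 2 and 14, and Gngt2 in 3 and 5.

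Since the cells fall into separate ranges of Ly6c2, correlations were read within the 29 cells over 100 TPM, as descriptions. The rank correlation with Ly6c2 was 0.09 for Nr4a1, -0.27 for Pou2f2, -0.14 for Treml4 and -0.09 for Gngt2. It was 0.28 for Spn, -0.24 for Ace and -0.22 for Cd36, each above 1 TPM in at most 5 of these cells. No member reached 0.4 in size, and Cd300e and Eno3, at 0 in every blood cell, had no value. The background is the 6006 genes above 1 TPM in at least 25% of blood cells. Of these 1.03% lay at or under -0.4 and 2.13% at or over 0.4. Among the members only Nr4a1, Pou2f2, Treml4 and Gngt2 belong to it, too few for a count of 0 to show much. Without the 2 of these 29 cells farthest from their median of Ly6c2, the value was 0.11 for Nr4a1, -0.29 for Pou2f2, -0.17 for Treml4 and 0.05 for Gngt2. Over all 38 cells, across the gap, 0 members reached 0.4 either (backgrounds 0.283% and 1.67%). In the 57 marrow monocytes the correlation was -0.12 for Nr4a1, 0.04 for Treml4, -0.30 for Gngt2 and 0.35 for Spn, again with 0 members at 0.4 (backgrounds 0.122% and 0.441%). Library complexity moved with some of these levels: Gngt2 had a rank correlation of -0.43 with the number of genes across the 38 blood cells, and Nr4a1 of -0.42 across marrow monocytes. Its part in the levels was not tested.

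The members were then counted per cell. With 10 TPM as the threshold, the median number per cell was 1 in cMoP, 1 in marrow monocytes and 2 in blood monocytes, and 2 in the 29 blood cells high in Ly6c2. At least 3 members were present in 2 of 66 cMoP, 6 of 57 marrow monocytes and 16 of 38 blood monocytes, or 13 of the 29 high in Ly6c2. Such counts rise with each member's own share of cells, and what unrelated members would give was not computed. They are thus no measure of members meeting in the same cells. Spn was above 10 TPM in 54 of 66 cMoP, where no other member passed it in more than 9.

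The cell with the most members was a blood monocyte with 7.68 TPM of Ly6c2, which held 6 of them. It carried Gngt2 at 3993 TPM, Treml4 at 1326 TPM, Ace at 150 TPM, Nr4a1 at 146 TPM, Cd36 at 22.8 TPM and Spn at 19.2 TPM. A marrow monocyte with 18643 TPM of Ly6c2 held 5 members, with Treml4 at 260 TPM, Nr4a1 at 226 TPM, Gngt2 at 194 TPM, Spn at 29.7 TPM and Ace at 25.97 TPM. The cells richest in members of marrow and of blood were therefore near opposite ends of the Ly6c2 range.

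**Figure D4:**
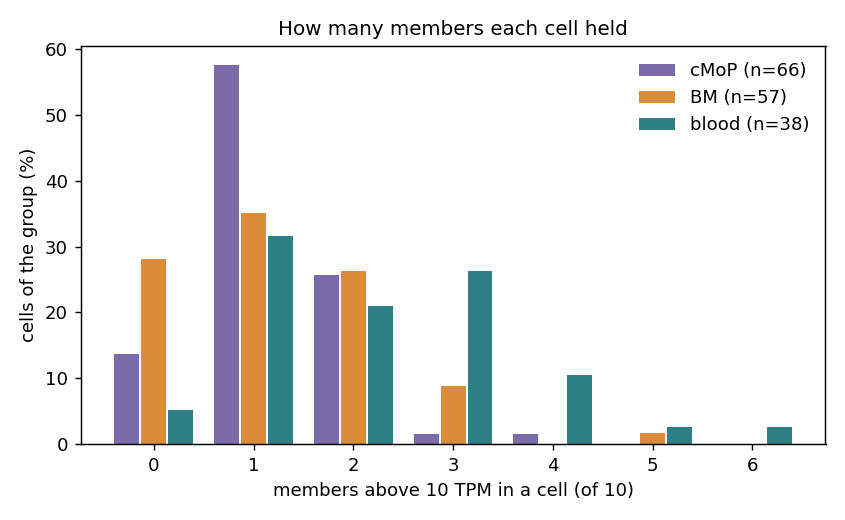
Share of cells, in percent of each labelled cell type, that hold 0 to 6 of the 10 members above 10 TPM. Blood monocytes reach further to the right, with 16 of 38 cells at 3 or more members, and 38 of 66 cMoP hold 1.

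Pairs of members were set against how often each occurred on its own. Of the 16 blood cells with Nr4a1 above 10 TPM, 6 held Treml4 (37.5%), against 34.2% of all blood cells. Of the 13 cells with Treml4, 6 held Nr4a1 (46.2%), against 42.1% of all. Gngt2 was present in 13 of the 16 cells with Nr4a1 (81.3%) and in 11 of the 13 with Treml4 (84.6%), against 76.3% of all. Among the 29 cells high in Ly6c2, 5 of the 14 with Nr4a1 held Treml4 (35.7%, against 31.03% of all 29) and 12 held Gngt2 (85.7%, against 79.3%). Over the 21 pairs of the 7 members above 10 TPM in at least 2 blood cells, the rank correlation ran from -0.14 to 0.40, with 0.02 for Nr4a1 and Treml4. In marrow monocytes the 21 pairs of the 7 members above 10 TPM in at least 2 cells ran from -0.31 to 0.25.

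3 members lay above 1 TPM in at least 50% of blood monocytes, and for these the genes with the most similar pattern were taken over the 38 blood cells from 2382 candidates. Each is an end of that many correlations, and how high such an end lies without a relation was not tested. The 29 cells are among the 38 that chose these genes, so their values are no separate check. For Nr4a1 the nearest were Psenen, a gamma-secretase subunit (rank correlation 0.55), the adaptor gene Sla (0.53) and the chloride channel gene Clic1 (0.51). Within the 29 cells high in Ly6c2 these were 0.59, 0.44 and 0.50. For Pou2f2 they were Ube2w (0.57), the ceramide synthase gene Cers6 (0.55) and the retinoic acid receptor gene Rara (0.54), and within the 29 cells 0.47, 0.52 and 0.59. For Gngt2 they were Tram1 (0.50), Eif1 (0.49) and Bhlhe41 (0.48), which were 0.43, 0.18 and 0.33 within the 29. Over the 38 cells Ly6c2 was nearest to Ly6c1 (0.76), Ly6g (0.60), Crlf3 (0.60), Usf1 (0.58) and Ms4a6d (0.57). Within the 29 cells these were 0.65, 0.59, 0.46, 0.59 and 0.503. The near copies Ly6c1 and Ly6g can share reads with Ly6c2. Over the 38 cells Ly6c2 was farthest from Nars (-0.45), Clip1 (-0.44), Calb1 (-0.42), RP23-411L6.3 (-0.42) and Gtf2h2 (-0.41). Within the 29 cells these were -0.43, -0.51, -0.08, -0.09 and -0.37.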

How the data were processed

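The authors deposited 1 table of TPM values, with a column per cell, made with RSEM 1.2.19 on GRCm38 per the submitters' processing notes. The aligner and annotation were not given in the sources used here. 161 columns matched labelled libraries by name and 0 were unmapped. No columns were identical. TPM keeps no depth, so precision is limited by the number of cells, and cells were not filtered or screened for doublets.

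Levels were compared as differences of mean log2(TPM + 1), with a pseudocount of 1 TPM, which understates differences of low genes. A fold threshold of 2 and a correlation of 0.4 were used as descriptions. Shares carry exact (Clopper-Pearson) 95% intervals, and a count of 0 the limit of 3 cells. Functions were tested on simulated data. Python 3.11.15, pandas 2.3.3 and scipy 1.17.1 were used.

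The members and lists were chosen with earlier results of these data known. Named genes were the members, Ly6c2, the 3 genes nearest to each member above 1 TPM in at least 50% of blood cells, the 5 nearest to and 5 farthest from Ly6c2, and up to 4 measured genes per list with the largest blood minus marrow difference or correlation with Ly6c2. Paralogues and immediate early relatives named beside a member were added after their values were seen. Adgre4 and Adgre1 were read under their older symbols Emr4 and Emr1. The correlation with Ly6c2 was planned over all 38 blood cells, and the gap in Ly6c2 moved it to the 29 cells above it. Gene positions are from GENCODE M21 on GRCm38. Alternatives covered the pseudocount, the mean, the scaling, the filter, matched gene numbers and left-out libraries.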

Additional observations from a re-analysis of the deposited data

How the results depend on the processing

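The number of members called higher in BM monocytes than in cMoP was 2 and became 1 with a pseudocount of 10 TPM (background 2.16%), 4 when mean TPM was compared directly as a log2 ratio (15.6%) and 1 in cells with 4500 to 6000 genes (11.7%). For blood monocytes against cMoP it was 5 and became 3 with a pseudocount of 10 TPM (2.48%) and 3 in cells with 4500 to 6000 genes (11.8%). For blood against marrow monocytes, cells with 4500 to 6000 genes changed which members were called. There Pou2f2 was higher (1.34), Ace was not (0.63) and Spn was lower (-1.16). The background for that setting was not computed. Members with a correlation of at least 0.4 in size with Ly6c2 in blood numbered 0, and 2 within the 9 cells under 100 TPM of Ly6c2, where the background is 11.3% at or under -0.4 and 15.7% at or over 0.4. These 2 were Gngt2 (-0.49) and Spn (-0.41). Spn was above 1 TPM in 1 of the 9 cells and is not among the background genes. The cause of these moves was not tested. No direction of a called difference reversed under the alternatives run. Of the single-member differences recomputed, 314 stayed within the SD over cells and 11 moved by more, 9 of them under the log2 ratio of mean TPM. Part of the 314 could not move, since the filter settings leave each difference unchanged and Cd300e was at 0 throughout. The SD is also wide, up to 4.30 for Treml4 in blood, so the count does not show that the differences are stable. Median-ratio scaling shifted the median of all measured genes from -0.45 to -0.34 (marrow minus cMoP) and from -0.58 to -0.40 (blood minus cMoP). Leaving out blood cells low in Ly6c2 at 100 TPM, reading within their ranges and leaving out the highest cell per group were chosen after seeing the data. No paired analysis was possible because replicate numbers only follow the order of the libraries and each group is 1 sample. The depth per cell is unknown, and with 38 blood cells a count of 0, if each 0 is a true 0, allows a share of up to 7.89%.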
